A study of Rattus norvegicus with 11 samples.

Results

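A set of 9 genes of the filamin, gelsolin and cortical actin machinery were examined in rat dentate gyri, with and without an earlier traumatic brain injury (TBI), and 8 of them had a probe set annotated to that gene alone, among 16572 genes tested. They were the filamins Flna and Flnc, gelsolin (Gsn), the PDZ-LIM gene Pdlim3, the membrane linkers ezrin (Ezr) and moesin (Msn), podoplanin (Pdpn) and Plp2. Gsn had a pair of probe sets, so that 9 probe sets were measured. All 9 passed the filter on low values. The ninth gene, Pdlim4, had no probe set of its own in the annotation used and was not analysed here. The genes were chosen from the same comparison of TBI with control rats that is described below, so their values are given as a description, with no test.

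The samples came from adult male Sprague-Dawley rats, at 90 days after surgery. The 6 TBI rats had been injured by lateral fluid percussion, a brief pressure wave of saline sent onto the exposed dura of the left hemisphere. The 5 controls were sham-operated: they went through the same anaesthesia and opening of the skull, without the impact. The left dentate gyrus, with the hilus, was dissected from each brain, and its RNA was read on 1 Affymetrix Rat Gene 1.1 ST array per rat, a chip with probes spread along the whole length of each transcript. Values are log2 signals after Robust Multi-array Average normalization (RMA), so that a difference of 1 is a doubling of signal, and signals of different probe sets cannot be ranked against each other. In bulk tissue, fewer or more cells of a type and less or more RNA per cell cannot be told apart.

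The actin cortex is a thin mesh of filaments under the plasma membrane that sets cell shape and carries force to adhesion sites. Filamins cross-link the filaments into a gel and tie them to integrins, and gelsolin loosens that gel by severing filaments and capping their ends in response to calcium. The ERM proteins, ezrin, radixin and moesin, pin the mesh to membrane proteins such as podoplanin and Cd44. In the brain, ezrin is found in the fine processes of astrocytes, whereas moesin is abundant in endothelial and immune cells, and reactive astrocytes are known for remodelling their cytoskeleton.

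After TBI, 8 of the 9 probe sets were higher on average than in controls, by 0.14 to 0.50 on the log2 scale, and the second Gsn probe set did not follow. The median difference of the 9 was 0.24, beside 0.01 over all 17905 probe sets tested, of which 57.2% were positive. In 6 probe sets, those of Flnc, Pdlim3, Msn, Pdpn and Plp2 and the first of Gsn, every TBI rat lay above every control, as did 0.832% of all probe sets. With limma, a linear model with a shared estimate of the spread, and Benjamini-Hochberg adjustment over all probe sets, 4 of the 9 (Plp2, Flnc, Pdlim3 and the first Gsn set) passed an adjusted p of 0.05 as higher, beside 0.14% of all probe sets, and 0 of the 9 passed as lower, beside 0.0112%. Without adjustment 8 were higher, beside 4.96% of all, and 0 were lower, beside 1.87%. Because the genes were selected on this contrast, these counts describe the choice and nothing is read from them.

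**Figure D1:**
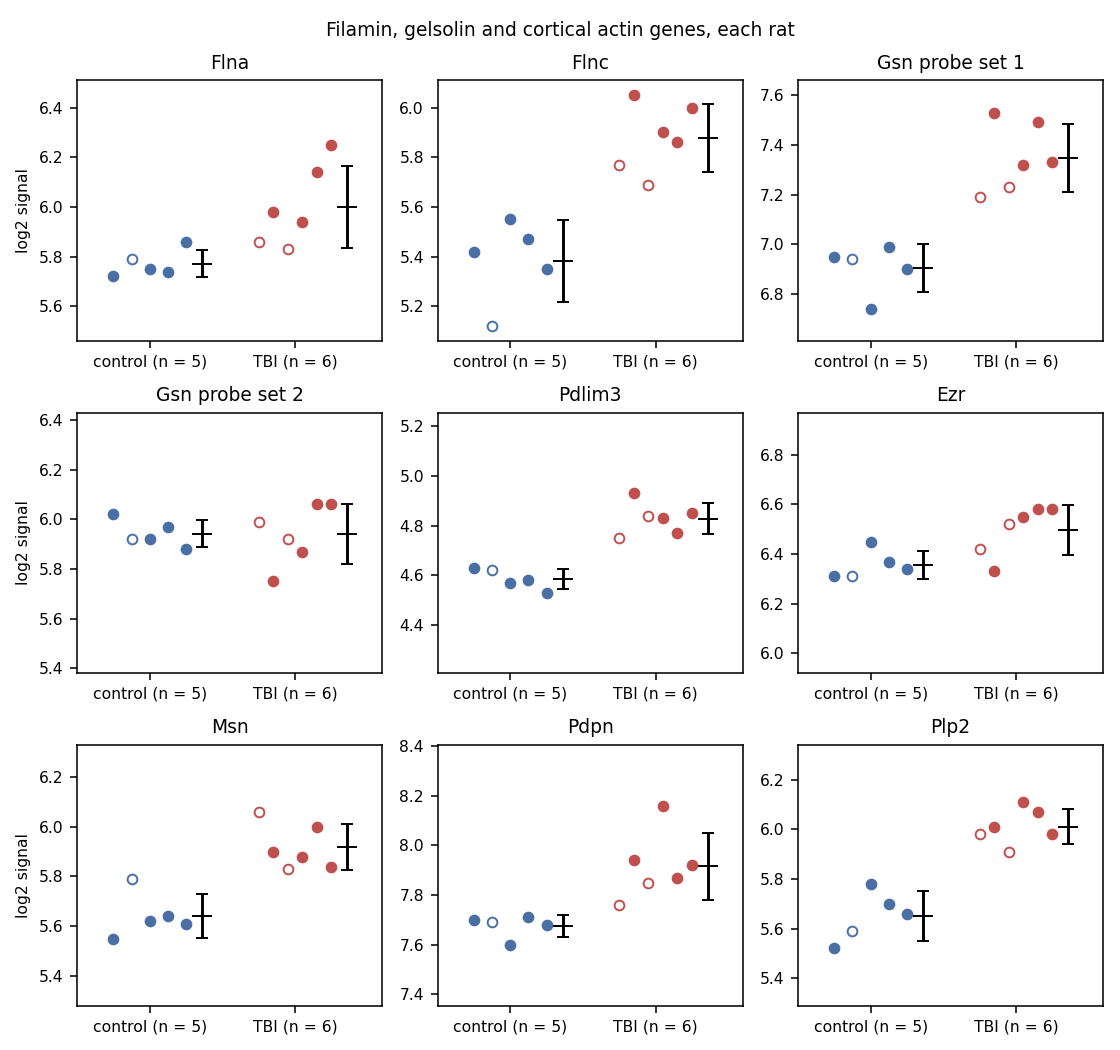
Log2 signal (y axis) of each of the 9 probe sets in the 5 control rats (blue) and the 6 TBI rats (red), with bars for the mean and SD of each group and open symbols for the 3 rats that stand apart within their groups. All panels span the same number of log2 units, and the groups overlap only for Flna, Ezr and the second Gsn probe set.

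Of the whole set of arrays, 3 stood apart. After the group means were removed, 1 component held 63.9% of the variance between rats, with scores of 0.45 for control rat 2, 0.49 for TBI rat 1 and 0.42 for TBI rat 3, and -0.34 to 0.06 for the other 8 rats. Array medians ran from 5.26 to 5.35, and the fit with median-centred arrays below removes that spread. The number of arrays limits the precision. Since these 3 rats touch several genes below, values without them are given beside the full ones.

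Flnc, the filamin of muscle Z-discs and of contractile cells, had the largest difference of the 9 sets with all rats, and the first Gsn set exceeded it without the 3 rats that stand apart, without control rat 2 and with array weights. Its probe set (10854139) read 5.42, 5.12, 5.55, 5.47 and 5.35 in control rats 1 to 5, and in the 6 TBI rats it ran from 5.69 through a median of 5.88 to 6.05. The lowest TBI rat, rat 3, was above the highest control, and the lowest control, rat 2, lay well under its group. TBI rats averaged 5.88 ± 0.14 (SD, n = 6) and controls averaged 5.38 ± 0.16 (SD, n = 5), a log2 difference of 0.50 with a standard error (SE) of 0.083 and a 1.42-fold ratio. The difference was 0.51 without the 3 rats that stand apart.

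Flna, the filamin of most non-muscle cells, had a smaller and less even difference. Its probe set (10936086) read 5.72, 5.79, 5.75, 5.74 and 5.86 in control rats 1 to 5, and 5.83, 5.96 and 6.25 as the lowest, median and highest value after TBI. TBI rats 5 and 6, at 6.14 and 6.25, were highest, while TBI rat 3 lay below control rat 5, so that 5 of 6 TBI rats exceeded every control. The mean was 6.00 ± 0.17 (SD, n = 6) against 5.77 ± 0.056 (SD, n = 5), a log2 difference of 0.23 (SE 0.073, 1.17-fold). It was 0.31 without the 3 rats that stand apart. The spread among TBI rats was wider than among controls.

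Gelsolin was the gene whose probe sets disagreed. The first set (10835757) read 6.95, 6.94, 6.74, 6.99 and 6.90 in control rats 1 to 5, and ran from 7.19 through 7.33 to 7.53 after TBI. All 6 TBI rats were above all 5 controls, with TBI rats 2 and 5 highest and TBI rats 1 and 3 lowest. The means of 7.35 ± 0.14 (SD, n = 6) and 6.90 ± 0.095 (SD, n = 5) gave a log2 difference of 0.45 (SE 0.069, 1.36-fold), and 0.53 without the 3 rats that stand apart.

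The second Gsn set (10835775) read 6.02, 5.92, 5.92, 5.97 and 5.88 in the controls, and 5.75, 5.96 and 6.06 as lowest, median and highest after TBI. The groups overlapped throughout, and the extremes of both signs were TBI rats. Both means were 5.94, with SDs of 0.12 (n = 6) and 0.053 (n = 5), and the difference of -0.00029 had a 95% interval from -0.13 to 0.13. The interval of the first set ran from 0.30 to 0.60. Because Gsn was chosen on this contrast, nothing is read from the gap, which was not tested. Which part of the gene each set covers is not given in the sources used here, so a value for the gene as a whole was not formed.

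Pdlim3 encodes a PDZ-LIM protein that binds alpha-actinin, the cross-linker of actin bundles and Z-discs. Its probe set (10791740) read 4.63, 4.62, 4.57, 4.58 and 4.53 in control rats 1 to 5, and 4.75, 4.84 and 4.93 as lowest, median and highest after TBI. The 2 groups were each narrow and well separated. The means were 4.83 ± 0.063 (SD, n = 6) and 4.59 ± 0.041 (SD, n = 5), a log2 difference of 0.24 (SE 0.039, 1.18-fold), which had the smallest SE of the 9 sets. It was 0.27 without the 3 rats that stand apart. The signal was low, so this set was absent from the fit that required a mean log2 value of 5, where 3 member sets were called higher.

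Moesin and ezrin, which link filaments to the membrane, were not equally separated. Msn (probe set 10934056) read 5.55, 5.79, 5.62, 5.64 and 5.61 in control rats 1 to 5, and 5.83, 5.89 and 6.06 as lowest, median and highest after TBI. Control rat 2 was the nearest to the TBI rats, and TBI rat 1 was the highest of them, and both are rats that stand apart. The means of 5.92 ± 0.092 (SD, n = 6) and 5.64 ± 0.089 (SD, n = 5) differed by 0.28 (SE 0.055, 1.21-fold), and by 0.30 without those 3 rats.

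Ezr (probe set 10717891) read 6.31, 6.31, 6.45, 6.37 and 6.34 in control rats 1 to 5, and 6.33, 6.54 and 6.58 as lowest, median and highest after TBI. TBI rats 1 and 2 lay within the range of the controls, and 4 of 6 TBI rats were above it. The means of 6.50 ± 0.10 (SD, n = 6) and 6.36 ± 0.061 (SD, n = 5) differed by 0.14 (SE 0.052), the smallest difference outside the second Gsn set. It was 0.14 without the 3 rats that stand apart as well.

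Podoplanin is a mucin-like membrane glycoprotein whose short cytoplasmic tail binds ezrin and moesin. Its probe set (10881293) read 7.70, 7.69, 7.60, 7.71 and 7.68 in control rats 1 to 5, and 7.76, 7.90 and 8.16 as lowest, median and highest after TBI. The controls were tight, and TBI rat 4 stood above its group. The means of 7.92 ± 0.13 (SD, n = 6) and 7.67 ± 0.044 (SD, n = 5) differed by 0.24 (SE 0.061, 1.18-fold), and by 0.30 without the 3 rats that stand apart.

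Plp2 is a small proteolipid of the MARVEL family of membrane-spanning proteins. Its probe set (10932534) read 5.52, 5.59, 5.78, 5.70 and 5.66 in control rats 1 to 5, and 5.91, 6.00 and 6.11 as lowest, median and highest after TBI. The lowest TBI rat, rat 3, was above the highest control, rat 3 of that group. The means of 6.01 ± 0.073 (SD, n = 6) and 5.65 ± 0.098 (SD, n = 5) differed by 0.36 (SE 0.052, 1.28-fold), and by 0.38 without the 3 rats that stand apart.

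**Figure D2:**
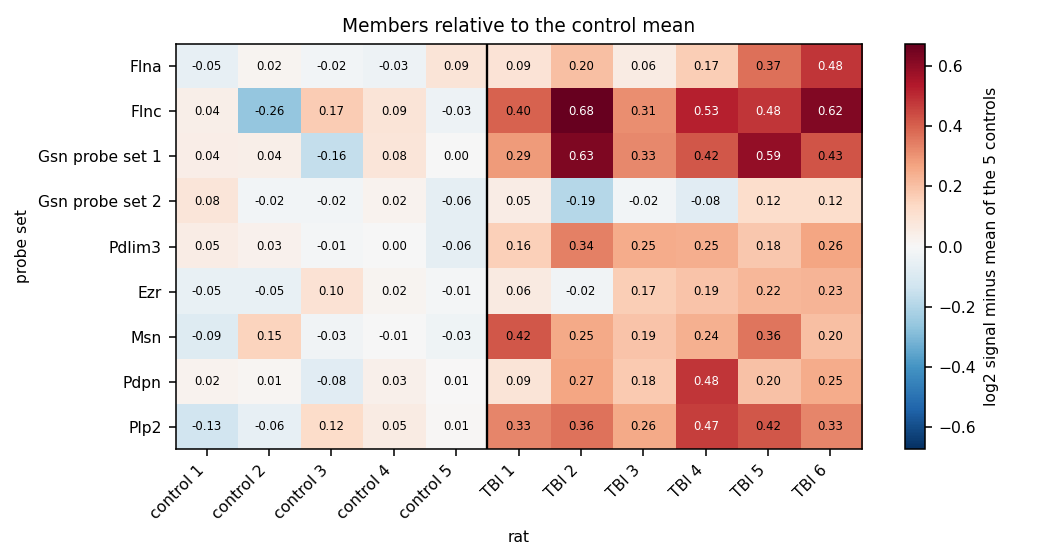
Log2 signal of each probe set (rows) in each rat (columns) minus the mean of the 5 controls, in red where above it and blue where below, with the value in each cell. The Flnc row holds the highest value of all cells, 0.68 in TBI rat 2, and the second Gsn row is mixed in both groups.

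The lowest TBI rats were mostly the same from gene to gene, and the highest were not. Over the 8 probe sets other than the second Gsn set, TBI rat 3 was the lowest TBI rat in 4, TBI rat 1 in 3 and TBI rat 2 in 1 (Ezr). TBI rats 1 and 3 were each among the 2 lowest in 6 of the 8. Their mean ranks, from 1 as lowest, were 2.25 and 1.88, and those of the other TBI rats were 4.0 to 4.5. The top rank was spread: TBI rat 2 for Flnc, Pdlim3 and the first Gsn set, TBI rat 4 for Pdpn and Plp2, TBI rat 6 for Flna and Ezr, and TBI rat 1 for Msn. TBI rats 1 and 3 are the TBI arrays that stand apart across the whole transcriptome, and the part of that component in these ranks was not tested.

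The number of member calls moved with the rats and the scaling used. When each rat was left out in turn, Plp2 kept its call in 4 of the 11 fits (without control 3 or TBI 1, 2 or 3), the first Gsn set in 3 (without TBI 1, 2 or 3), Flnc in 1 (without TBI 3) and Pdlim3 in 1 (without TBI 1). Without any of the other 7 rats, none of the 9 sets was called. Centring each array on its median gave 0 calls, beside 5 higher over all probe sets, and a median difference of 0.21. At limma's unadjusted p of 0.05 that fit had 8 members higher, beside 2.85% of all probe sets higher and 4.04% lower. Leaving out the 3 rats that stand apart together gave 6 member calls, the 4 above with Msn and Pdpn, and a median difference of 0.30, while the calls over all probe sets went from 25 to 179 higher and from 2 to 92 lower. Nothing is read from the sign of these differences, which the choice of genes fixed.

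Promoter sequences are shown for both filamins and Plp2, because a short sequence was shared by them. Each is the 250 bases before the annotated start of the gene in RefSeq, assembly GRCr8, written 5′ to 3′ on the strand of the gene. The intervals are chrX:157182344-157182593 on the minus strand for Flna, chr4:58999297-58999546 on the plus strand for Flnc and chrX:17505903-17506152 on the plus strand for Plp2. Capitals mark CATTCC, the reverse complement of GGAATG, which is the core recognised by TEAD factors, transcription factors of the Hippo pathway.
Flna: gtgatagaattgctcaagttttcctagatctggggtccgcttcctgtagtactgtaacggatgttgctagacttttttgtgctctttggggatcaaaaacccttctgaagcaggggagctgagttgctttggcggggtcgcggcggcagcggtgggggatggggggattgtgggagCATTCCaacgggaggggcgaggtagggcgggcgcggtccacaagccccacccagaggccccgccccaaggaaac
Flnc: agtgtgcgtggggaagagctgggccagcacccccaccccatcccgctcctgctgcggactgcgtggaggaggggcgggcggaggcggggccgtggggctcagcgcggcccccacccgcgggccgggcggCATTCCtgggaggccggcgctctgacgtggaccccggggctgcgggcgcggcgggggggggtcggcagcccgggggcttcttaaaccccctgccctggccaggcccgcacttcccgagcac
Plp2: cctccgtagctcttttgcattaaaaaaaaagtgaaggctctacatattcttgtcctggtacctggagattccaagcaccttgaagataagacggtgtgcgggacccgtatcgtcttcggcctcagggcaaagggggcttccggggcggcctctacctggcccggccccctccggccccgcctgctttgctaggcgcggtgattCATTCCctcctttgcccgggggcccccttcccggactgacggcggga
The match begins 74 bases before the start of Flna, 121 before Flnc and 47 before Plp2.

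A promoter was matched for 8 of the 9 genes in the rule, Pdlim4 included and Pdlim3 not. Searching both strands and counting each motif whether or not it overlapped another, GGAATG was present in 3 of these 8 promoters and in 12.1% of 33469 promoters of the same length. The GC box GGGCGG was present in 8 of 8 and in 30.5% of all. The 8 promoters were 51.6% to 78.4% G and C, and they were not matched on this to the others. The 33469 promoters were also not limited to the 16572 genes tested. The AP-1 site TGANTCA was in 1 (Plp2) and 6.34% of all, the E-box CACGTG in 2 (Ezr and Msn) and 5.59% of all, and the CArG box, bound by serum response factor at many contractile genes, in 0 and 1.5% of all. These motifs were picked with the sequences in view, and a match is a description of letters and not of a bound site.

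The gene families of the members also hold paralogs, which were named whatever their values. The members had been taken from these families on this same contrast, so the paralogs are the genes that choice left. Nothing is read from a gap between members and paralogs. Of the 10 paralogs measured, 0 passed limma's adjusted p, whose lowest value was 0.26, and 2 were higher at an unadjusted p of 0.05 (Capg and Pdlim5), beside 4.96% of all probe sets. Capg, a gelsolin relative that caps filaments without severing them, read 5.24, 5.36, 5.21, 5.16 and 5.12 in controls and 5.32 to 5.76 in TBI rats. The groups overlapped only at control rat 2 and TBI rat 3, and the log2 difference was 0.28 (SE 0.075, limma adjusted p = 0.29). Without the 3 rats that stand apart it was 0.38 (limma adjusted p = 0.038), in a fit whose calls over all probe sets went from 25 to 179 higher. Pdlim5, another alpha-actinin-binding PDZ-LIM gene, had a log2 difference of 0.21 (SE 0.053, limma adjusted p = 0.26).

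For the other 8 paralogs, differences lay between -0.03 and 0.07. The interval of Pdlim7, a PDZ-LIM gene with LIM domains that bind kinases, ran from -0.14 to 0.10, and that of supervillin (Svil), a membrane-bound gelsolin relative, from -0.07 to 0.21. Radixin (Rdx), the third ERM gene, had a difference of -0.03 with an interval from -0.33 to 0.27. That interval overlapped those of Msn, 0.16 to 0.40, and Ezr, 0.03 to 0.26. The 3 highest Rdx values, 7.95, 7.96 and 7.79, were those of control rat 2, TBI rat 1 and TBI rat 3. The other 8 rats read 7.30 to 7.65. Without those 3 rats the Rdx difference was -0.10. Differences between members and paralogs were not tested.

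**Figure D3:**
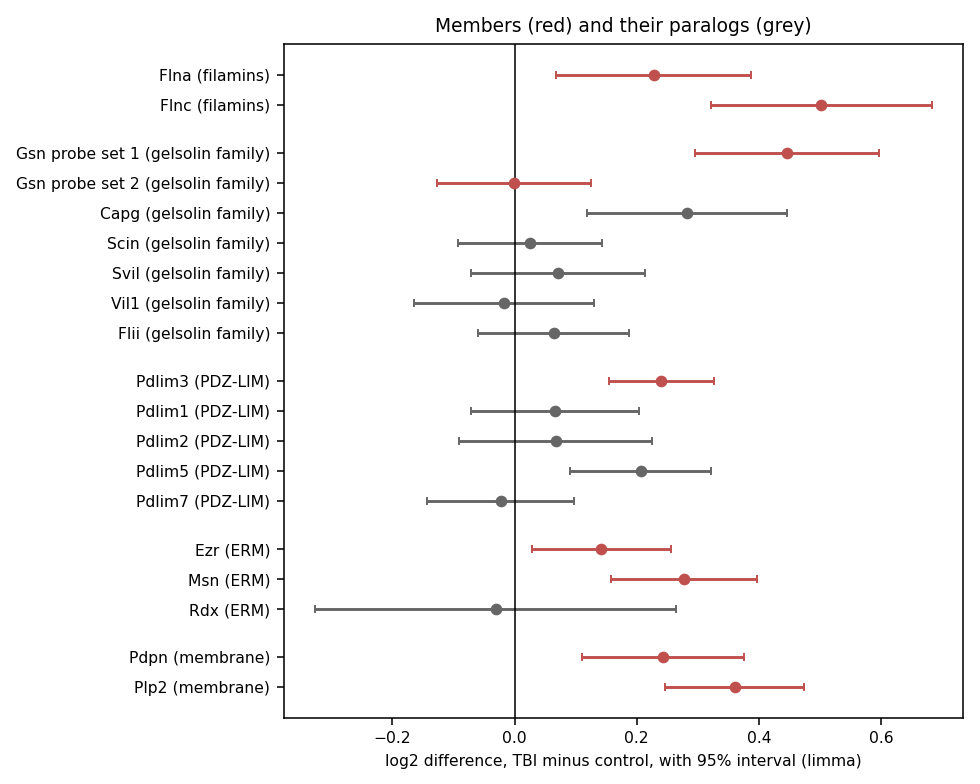
Log2 difference, TBI minus control, with its 95% interval from limma (x axis), for the 9 member probe sets (red) and their 10 measured paralogs (grey), grouped by family (y axis). Of the paralogs, only the intervals of Capg and Pdlim5 lie above 0, and Rdx has the widest interval.

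A wider look at the actin cytoskeleton used 12 gene lists, from filamin-binding proteins to regulators of serum response factor, with 175 genes and 186 probe sets besides the members. Of these, 1 passed the adjusted p as higher (Cd44) and 0 as lower. At an unadjusted p of 0.05, 21 were higher (11.3%) and 1 lower (0.538%), beside the 4.96% and 1.87% of all probe sets. Their median difference was 0.02, with 108 positive and 78 negative, and the differences ran from -0.39 to 0.41. Median-centring moved these counts to 15 higher and 7 lower, and over all probe sets from 888 higher and 334 lower (72.7% of calls higher) to 510 and 723 (41.4%). A second quantile normalization gave 16 and 3 in the lists and 668 and 486 (57.9%) over all.

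The ERM proteins and partners held 3 of 14 probe sets higher and 0 lower without adjustment, beside 4.96% and 1.87% of all probe sets. Cd44, the hyaluronan receptor whose tail binds ERM proteins, rose by 0.41 on the log2 scale (SE 0.069, limma adjusted p = 0.049), from 4.42 ± 0.14 (SD, n = 5) to 4.83 ± 0.099 (SD, n = 6), with all 6 TBI rats above all 5 controls. That call was lost in each of the 11 fits that left out a rat (limma adjusted p from 0.068 to 0.15) and with median-centred arrays (limma adjusted p = 0.11), and it was kept without the 3 rats that stand apart (limma adjusted p = 0.044). Cd9, a tetraspanin that assembles with adhesion receptors, was at the threshold, with a difference of 0.33 (SE 0.057, limma adjusted p = 0.050) and no overlap between the groups. Its limma adjusted p was 0.11 with median-centred arrays and 0.17 after a second quantile normalization. It was 0.024 without TBI rat 1, 0.030 without TBI rat 3, and 0.11 to 0.18 without any other single rat. Without the 3 rats that stand apart the difference was 0.41 (limma adjusted p = 0.0016), in a fit that called 179 of all probe sets higher. Podxl, a sialomucin anchored by ezrin in kidney podocytes, differed by 0.15 (limma adjusted p = 0.45).

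Among actin cross-linking and bundling genes, 5 of 22 probe sets were higher at the unadjusted p and 0 lower, beside 4.96% and 1.87% of all probe sets, or 2.85% and 4.04% with median-centred arrays. They included gamma-adducin (Add3), which caps filaments at the spectrin lattice, with a difference of 0.22 (SE 0.044, limma adjusted p = 0.11), and Lima1, a bundling protein of stress fibres, with 0.20 (limma adjusted p = 0.30). Caldesmon (Cald1) differed by 0.19 and L-plastin (Lcp1), the bundling protein of leukocytes, by 0.25 (limma adjusted p = 0.51 and 0.59). The adhesion linkers also held 5 of 25 higher and 0 lower, among them Parvb at 0.14 and talin (Tln1), which connects integrins to actin, at 0.17. In the Arp2/3 and nucleation list, 1 of 23 was higher (4.35%), near the 4.96% of all probe sets. That was Wasf2, a subunit of the WAVE complex, at 0.20 (SE 0.043, limma adjusted p = 0.14). Without the 3 rats that stand apart, 8 list probe sets were called higher, while calls over all probe sets went from 25 to 179 higher and from 2 to 92 lower. Besides Cd44, Cd9 and Capg they included Wasf2 at 0.25 (limma adjusted p = 0.018), Arpc1b, a subunit of the Arp2/3 complex, at 0.31, Tln1 at 0.22 (both limma adjusted p = 0.035) and Cmtm5 at 0.21 (limma adjusted p = 0.033).

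Smaller groups near the members held a few genes each, and their counts stand beside 4.96% of all probe sets higher and 1.87% lower at the unadjusted p. Of 10 filamin-binding probe sets, 2 were higher at the unadjusted p, Filip1, a regulator of filamin stability, at 0.21 and the leukocyte integrin Itgb2 at 0.18. Of 12 MARVEL probe sets, 1 was higher (8.33%), Cmtm5 at 0.16. The spectrin and band 4.1 list held 0 of 16 in either direction, with differences from -0.12 to 0.10. The list of actins, tropomyosins and nonmuscle myosins held 1 of 23 (4.35%), near the share of all probe sets. That was Myh11 at 0.23, which encodes the myosin heavy chain of smooth muscle.

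In the severing, depolymerising and capping list, 0 of 22 probe sets were higher and 1 was lower at the unadjusted p, beside 4.96% and 1.87% of all. That was profilin 1 (Pfn1), which feeds actin monomers to growing filaments, at -0.16 (limma adjusted p = 0.72). The neuronal profilin Pfn2 had a difference of -0.34 with an interval from -0.73 to 0.06. Both probe sets of Actg1, cytoplasmic gamma-actin, that were nearest to the threshold lay slightly below 0, at -0.09 and -0.06, and neither passed. Of 10 probe sets for regulators of serum response factor, 1 was higher without adjustment, Arhgef2 at 0.09, beside 4.96% of all probe sets.

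**Figure D4:**
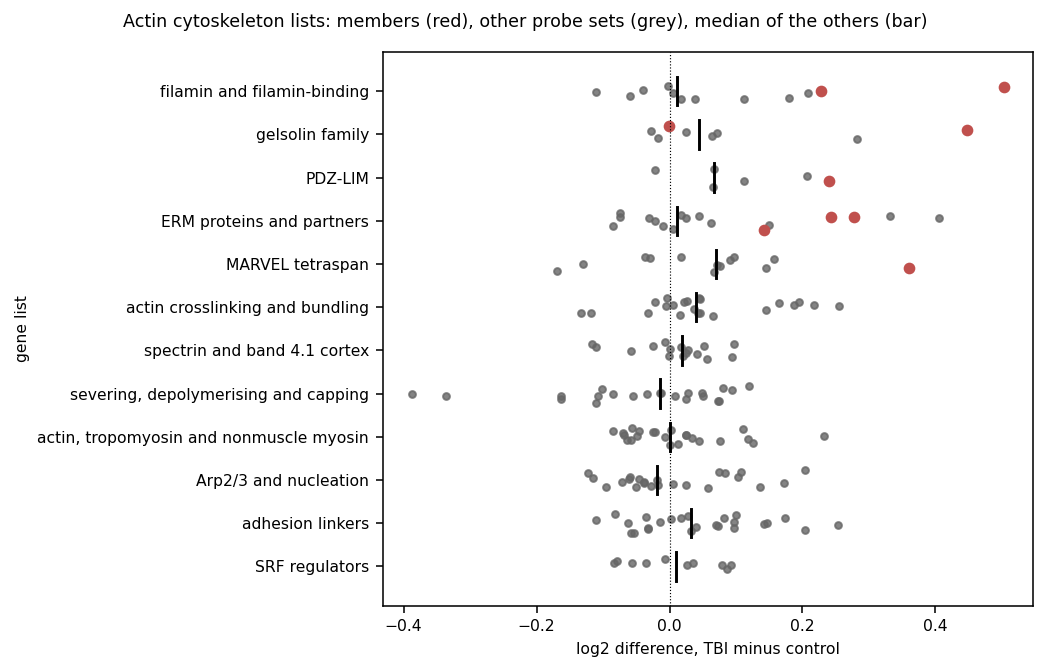
Log2 difference, TBI minus control (x axis), of every probe set in the 12 actin cytoskeleton lists (y axis), with members in red, other probe sets in grey and the median of the others as a black bar. Medians of the other probe sets lie between -0.02 and 0.07, and Cd44 at 0.41 is the highest of the grey points.

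Several of these genes are also expressed by glia, vessels and meninges, so the levels of marker lists are given beside them. The mean log2 level of 13 astrocyte probe sets was 9.41 to 9.46 in TBI rats and 9.23 to 9.41 in controls. At the adjusted p 2 of the 13 rose (Gfap and Mlc1), beside 0.14% of all probe sets. At the unadjusted p 4 were higher and 0 lower. The list was mixed in sign, with 9 differences positive and 4 negative. The negative ones were Slc1a3, Aldoc and Gjb6, each at -0.09, and Slc1a2 at -0.005. Pericyte and smooth muscle markers averaged 6.05 to 6.19 against 5.92 to 6.10, and 0 of 13 passed. Of these, 4 were higher at the unadjusted p and all 13 differences were positive. Myh11, Tagln and Cnn1 of this list are also in the actin lists above. Endothelial markers averaged 6.31 to 6.38 against 6.17 to 6.37, with 0 of 10 passing, 3 higher at the unadjusted p and all 10 differences positive. Microglia and macrophage markers averaged 5.92 to 6.26 against 5.73 to 6.14, with 0 of 12 passing and 10 of 12 differences positive. At the unadjusted p 2 were higher, Cd68 at 0.58 and a Ptprc set at 0.17, and 1 was lower, Aif1 at -0.15. Over all probe sets, 4.96% were higher and 1.87% lower at the unadjusted p, and 57.2% of differences were positive. Median-centring moved the first 2 shares to 2.85% and 4.04%, and the marker counts are from the fit without that scaling.

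Fibroblast and meningeal markers averaged 5.71 to 5.78 in TBI rats and 5.52 to 5.79 in controls, with 0 of 10 passing. At the unadjusted p 1 was higher, beside 4.96% of all probe sets, and 9 of 10 differences were positive, beside 57.2% of all. Choroid plexus and ependymal markers averaged 4.03 to 4.26 against 3.97 to 4.23, and oligodendrocyte markers 7.60 to 7.93 against 7.60 to 7.81, with 0 of 8 and 0 of 12 passing. Neuronal markers, including the granule cell genes Prox1 and C1ql2 that define this tissue, averaged 8.93 to 9.14 against 9.02 to 9.12, with 0 of 13 passing. In these last 3 lists 0 passed limma's unadjusted p either, and positive differences numbered 4 of 8, 6 of 12 and 4 of 13. Probe sets at the background value of 3.06 in over 5 arrays had been left out before. Some markers that remained lay close to it, such as Rsph1, with means of 3.25 in TBI rats and 3.31 in controls. The part of any of these cell types in the member values was not tested.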

How the data were processed

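Arrays of 6 TBI and 5 control rats were compared. The values of 29214 probe sets were deposited as log2 signals, after the authors had normalized them with RMA (oligo 1.30.0 in the submitters' processing notes). RMA brings the distributions of the arrays together, so a shift shared by most transcripts would be reduced. The deposited array medians still ran from 5.26 to 5.35. Centring the arrays on them moved the median difference over all probe sets from 0.01 to -0.02. Values below 3.06, the lowest value in the readable part of the authors' table of background-filtered signals, were raised to it (487 values among those tested). Left out were 2136 probe sets lying at this value in over 5 arrays, 962 with several gene symbols and 9608 with none, classes that overlap. The remaining 17905 were compared with limma 3.58.1 in R 4.3.3 and Benjamini-Hochberg adjustment over all of them, in a fit without covariates, in place of the methods' one-way analysis of variance, which was an alternative. The limma step was tested on simulated data with independent noise in each probe set. Those data lacked the component shared across probe sets, so that test does not bear on how stable the calls are.

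The genes and lists were chosen with earlier results of these data known. Named were every member, up to 4 probe sets with the lowest p in each list, and the members' paralogs. Promoters came from RefSeq. The miRNA data of the same rats were not used here. As alternatives, the floor and filter were omitted, a mean log2 value of 5 was required, arrays were centred on their median or quantile-normalized again, limma was run with a variance trend and robust prior, with array weights or with a replicate block, probe sets of several genes were kept, and rats were left out.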

Additional observations from a re-analysis of the deposited data

Results flagged for a closer look

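In 120 groups of rats, formed by the named probe sets in each group, the lowest or highest rat was compared with its neighbour relative to the range of the group (Dixon's test), and 5 groups had a rat far from the others. Chance gives about 1 in 20 groups, which is about as many as were found. All 5 were control rats. Among the members it was Pdpn, where control rat 3 read 7.60 and the next control 7.68, so the gap is small in size. Control rat 1 was highest for Arhgap24, at 4.69 against 4.64, and lowest for Cd44, at 4.18 against 4.44, and for Stk10, at 4.76 against 4.91. Without control rat 1, the Cd44 difference was 0.34 (limma adjusted p = 0.077). Control rat 2, one of the arrays that stand apart, was lowest for Sptbn4, at 6.40 against 6.64.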

How the results depend on the processing

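The median difference of the members was 0.21 to 0.30 in every setting tried, against 0.24. Counts of calls moved, and the cause was not tested. Of the 9 member probe sets, 4 were called higher, and 0 were with median-centred arrays, the second quantile normalization, the analysis of variance or the replicate block, 7 with array weights, and 0 to 3 when a rat was left out. Of the list probe sets, 1 was called, and 0 were without floor and filter, with either rescaling, the analysis of variance, the replicate block or any number of symbols, 11 with array weights, 8 without the 3 rats that stand apart, and 0 to 1 when a rat was left out. Over all probe sets, 25 were higher and 2 lower. Higher calls numbered 5 with median-centred arrays, 6 with the second quantile normalization, 7 with the analysis of variance, 243 with array weights, 3 with the replicate block and 179 without the 3 rats, and 4 to 31 when a rat was left out. Lower calls numbered 1, 67, 0 and 92 with the second quantile normalization or analysis of variance, array weights, replicate block and without the 3 rats, and 1 to 4 when a rat was left out.

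The replicate numbers shared by the groups were taken as names only. Deviations of same-numbered rats correlated from -0.65 to 0.11, and 0 of 5 correlated best with their own number. The component that held 63.9% of the variance enters these correlations, so they cannot show whether same-numbered rats shared a batch. TBI rat 6 has no control of its number and adds nothing to the differences under the replicate block. Array weights gave TBI rats 1 and 3 the lowest weights, 0.34 and 0.35. With 5 and 6 arrays a group, small differences such as that of Ezr are limited by the spread between rats.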
